A study of Mus musculus with 9 samples.

Results

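The 10 genes described here, all typical of neutrophils and monocytes, were S100a8, S100a9, Ngp, Camp, Ltf, Lcn2, Csf3r, Lyz2, Csf1r and Cd68, and they were measured by RNA-seq in mouse CD4+ T cells. They were chosen by gene name, as markers of these cells, and all 10 were found among the 55487 genes of the expression table. All 10 also passed the filter on low values, at least 1 TPM (a length-corrected share of a library's transcripts) in at least 3 libraries, that left 15536 genes for testing. The cells came from spleens of wild type (Trail-r+/+) C57BL/6 mice, which the study's methods give as young females, and were isolated with a negative selection kit, in which antibodies remove the cells that are not wanted. One group of 3 libraries was kept in medium only, for a time that the labels do not state. A second group of 3 was stimulated for 24 h with Abs against CD3, at 3 µg/ml, and against CD28, at 2 µg/ml, which together activate T cells through their antigen receptor and a costimulatory receptor. The third group of 3 was stimulated in the same way with 10 µg/ml of TRAIL added, a ligand of the TNF family that binds the receptor TRAIL-R. No group received TRAIL without stimulation. The labels number the libraries but do not say whether they came from separate mice or cultures, so the p-values measure the spread between these libraries, which may be technical.

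Neutrophils mature in the bone marrow and fill their granules in sequence, azurophil granules first, in promyelocytes, and specific granules later, in myelocytes and metamyelocytes. The mRNAs of the granule proteins are made mainly during those stages and decline as the cell matures, whereas S100a8 and S100a9, the subunits of the cytosolic protein calprotectin, stay abundant in mature neutrophils and are also made in monocytes. Csf3r and Csf1r encode the receptors for G-CSF and M-CSF, the growth factors of the neutrophil and of the monocyte and macrophage lineages. Lyz2 (lysozyme M) and Cd68 (a lysosomal membrane glycoprotein) are made across myeloid cells, with Cd68 highest in macrophages. T cells are not a known main source of any of these mRNAs.

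The labelled cell type was checked against its markers. The 9 T cell marker genes summed to 3762 to 4131 TPM in medium, to 3253 to 3328 TPM after stimulation and to 3759 to 4129 TPM with TRAIL, and Cd4, named as the gene that defines the label, averaged 384 TPM in medium. Markers of other spleen cells were present beside them. In medium the 9 B cell markers summed to 2216 to 2274 TPM, the 7 erythroid markers to 2137 to 2585 TPM, the 11 red pulp macrophage markers to 1647 to 1930 TPM, the 9 dendritic cell markers to 67.1 to 71.3 TPM and the 7 NK and CD8 T cell markers to 273 to 324 TPM. In medium no marker of these 5 lists was at the table's floor of 0.0001 TPM in all 3 libraries. These are bulk libraries, so fewer cells of a type and less RNA per cell cannot be told apart.

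The 10 genes lie on 7 chromosomes. S100a8 (chr3:90668978-90670035) and S100a9 (chr3:90692632-90695721) are neighbours with 22.6 kb between them. Camp (chr9:109847379-109849617), Ngp (chr9:110419747-110423012) and Ltf (chr9:111019271-111042767) lie within 1.20 Mb of each other. The others are Lcn2 (chr2:32384633-32388252), Csf3r (chr4:126024550-126044440), Lyz2 (chr10:117277331-117282321), Cd68 (chr11:69664213-69666153) and Csf1r. All 10 loci are those of GRCm38 and are annotated as protein-coding genes.

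In both comparisons with stimulated cells all 10 genes moved in the same direction. The bases before their start sites were therefore searched for motifs of 2 kinds of factor known from myeloid cells. RefSeq promoter windows of GRCm38.p6, each the 250 bases before the start, were held for 9 of the 10 genes. RefSeq places some starts further into the gene than the expression table does, so all 250 bases of the Lcn2 window, 161 of the Camp window, 109 of the Csf3r window, 93 of the S100a8 window and 61 or fewer of the others lie inside the gene as the table gives it. TTGCNNAA, a C/EBP-type motif searched on both strands, was found in 5 of the 9 windows, those of Ngp, Ltf, Lcn2, S100a9 and Cd68, and in 9.56% of all 32851 windows. GAGGAA, a PU.1-type motif searched in the same way, was found in 5 of the 9, those of Ltf, Lcn2, S100a8, Csf3r and Cd68, and in 23.3% of all windows. In the 3 windows that held both, the matches did not overlap. The windows of Camp and Lyz2 held neither. A match describes the letters only.

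The 4 sequences that follow show the C/EBP-type match, in capitals, in 2 specific granule genes, in a calprotectin gene and in the lysosomal gene Cd68, whose levels with TRAIL ran from 45.8% of medium for Ltf to 85.4% for Cd68. They run 5′ to 3′ on the strand of the gene and are the part of each window that lies before the gene start of the expression table as well; a further match in the Ngp window lies outside that part.
Ngp (chr9:110419558-110419746, plus strand): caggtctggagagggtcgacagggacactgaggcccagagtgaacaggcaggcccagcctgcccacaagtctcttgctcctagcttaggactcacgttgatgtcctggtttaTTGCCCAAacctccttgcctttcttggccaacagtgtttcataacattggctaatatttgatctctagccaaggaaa
Ltf (chr9:111019042-111019270, plus strand): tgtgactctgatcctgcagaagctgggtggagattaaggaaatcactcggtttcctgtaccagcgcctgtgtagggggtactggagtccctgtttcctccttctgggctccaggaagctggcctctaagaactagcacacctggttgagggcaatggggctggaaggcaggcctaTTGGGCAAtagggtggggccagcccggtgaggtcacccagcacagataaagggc
S100a9 (chr3:90695722-90695971, minus strand): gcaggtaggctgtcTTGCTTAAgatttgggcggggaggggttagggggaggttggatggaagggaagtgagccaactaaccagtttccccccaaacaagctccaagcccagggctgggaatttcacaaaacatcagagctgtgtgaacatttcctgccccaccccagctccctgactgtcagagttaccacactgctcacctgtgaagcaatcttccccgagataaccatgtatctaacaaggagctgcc
Cd68 (chr11:69666171-69666420, minus strand): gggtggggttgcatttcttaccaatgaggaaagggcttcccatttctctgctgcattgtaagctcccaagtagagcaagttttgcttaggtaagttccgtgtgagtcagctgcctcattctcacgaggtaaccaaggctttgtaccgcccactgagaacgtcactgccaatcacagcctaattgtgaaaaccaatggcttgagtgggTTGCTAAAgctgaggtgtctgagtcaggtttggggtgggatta

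After stimulation all 10 genes fell, and the fall was large for each. In sum they accounted for 1979, 1639 and 1897 TPM in the 3 medium libraries and for 76.5, 68.2 and 60.1 TPM in the 3 stimulated libraries, 3.71% of the medium level. With TRAIL the sums were 1036, 1182 and 1151 TPM, 61.1% of the medium level. Every gene was called lower in stimulated cells than in medium (limma on log2(TPM + 1), Benjamini-Hochberg adjusted p under 0.05 and at least 1 log2 unit), where 19.5% of all genes tested were called lower and 12.4% higher. Every gene was also called higher with TRAIL than after stimulation alone, where 16.6% of all genes were called higher and 14.3% lower. In neither comparison did the libraries of the compared groups overlap for any of the 10, as was so in that direction for 42.6% and 35.5% of all genes. The median log2 fold change of the 10 was -4.57 in the first comparison, beside -0.15 for all genes tested, and 3.71 in the second, beside 0.01. Both comparisons, and that of TRAIL with medium, share libraries, so their values are given side by side and not as separate support.

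**Figure D1:**
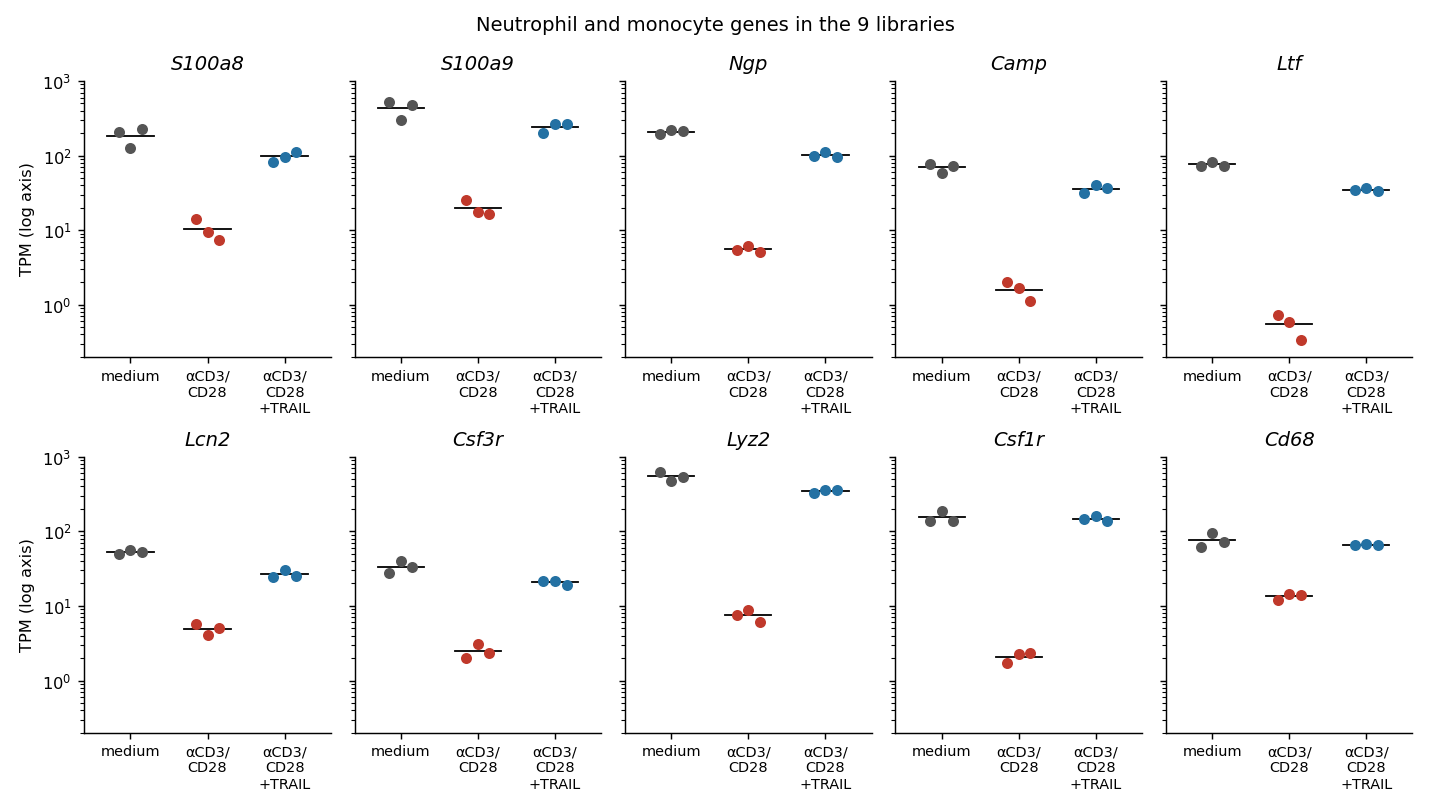
TPM of each of the 10 genes (log axis) in the 3 libraries of each group, as points, with the group mean as a line. For every gene the 3 stimulated libraries sit below all other libraries, and only for Csf1r and Cd68 do the TRAIL libraries reach into the range of the medium libraries.

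With TRAIL the 4 specific granule genes stood at 45.8% to 51.6% of their medium level. Ngp, which encodes neutrophilic granule protein, measured 196, 218 and 215 TPM in medium, 5.49, 6.13 and 5.18 TPM after stimulation and 99.5, 113 and 96.6 TPM with TRAIL. Ltf, which encodes the iron-binding protein lactoferrin, measured 72.6, 83.4 and 73.6 TPM, then 0.727, 0.597 and 0.342 TPM, then 35.0, 36.5 and 33.5 TPM. The stimulated libraries of Ltf were the only ones of any of the 10 genes that all lay under 1 TPM. Camp, which encodes the antimicrobial peptide precursor cathelicidin, measured 77.3, 59.1 and 73.3 TPM, then 2.01, 1.67 and 1.11 TPM, then 31.5, 39.8 and 37.0 TPM. Lcn2, which encodes the siderophore-binding protein lipocalin 2, measured 49.4, 55.9 and 53.4 TPM, then 5.68, 4.06 and 5.005 TPM, then 24.1, 30.5 and 24.8 TPM. For all 4 genes the 3 groups were separate, with stimulated libraries lowest, TRAIL libraries between and medium libraries highest.

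The size of the fall differed among these 4 genes more than the level with TRAIL did. Stimulated cells held 0.726% ± 0.256 (SD, n = 3) of the medium mean for Ltf, 2.29% ± 0.650 for Camp, 2.67% ± 0.231 for Ngp and 9.29% ± 1.54 for Lcn2. On the log2(TPM + 1) scale, which understates the change of low genes such as Ltf, the log2 fold changes from medium were -5.64 for Ltf, -4.78 for Camp, -4.998 for Ngp and -3.19 for Lcn2. With TRAIL the shares were 45.8% ± 1.95 for Ltf, 49.1% ± 4.19 for Ngp, 50.05% ± 6.63 for Lcn2 and 51.6% ± 6.02 for Camp. The latter shares overlap between the 4 genes within their SD.

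S100a9 was the second most abundant of the 10 in medium and S100a8 the fourth. S100a8 measured 205, 127 and 227 TPM in medium, 14.1, 9.55 and 7.32 TPM after stimulation and 82.5, 97.1 and 113 TPM with TRAIL. S100a9 measured 521, 304 and 471 TPM, then 25.2, 17.5 and 16.5 TPM, then 204, 262 and 270 TPM. Their groups did not overlap, but the medium libraries were widely spread, with replicate 2 lowest for both. S100a8 stood at 5.55% ± 1.86 of the medium mean after stimulation and at 52.4% ± 8.09 with TRAIL, and S100a9 at 4.57% ± 1.10 and 56.7% ± 8.29. S100a9 was the higher of the pair in every library, by 1.79 to 2.70 times.

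The G-CSF receptor gene Csf3r was the lowest of the 10 in medium. It measured 28.0, 40.0 and 33.1 TPM in medium, 1.99, 3.06 and 2.37 TPM after stimulation and 21.8, 21.5 and 19.2 TPM with TRAIL, 7.35% ± 1.61 and 61.8% ± 4.09 of the medium mean. Lyz2, the highest of the 10 in medium, measured 630, 467 and 539 TPM, then 7.56, 8.77 and 6.11 TPM, then 327, 357 and 355 TPM. It fell further than Csf3r, to 1.37% ± 0.245 of the medium mean, and stood at 63.5% ± 3.11 with TRAIL. Reads of Lyz2 can be divided with those of its near-identical copy Lyz1, which was listed at 4.61 TPM or less in every library. For both genes the TRAIL libraries lay below all medium libraries.

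Csf1r and Cd68 differed from the other 8 in that their TRAIL libraries overlapped those in medium. Csf1r measured 138, 190 and 139 TPM in medium, 1.70, 2.24 and 2.31 TPM after stimulation and 145, 158 and 138 TPM with TRAIL. Its share of the medium mean was 1.34% ± 0.215 after stimulation, the second lowest of the 10 after Ltf, and 94.6% ± 6.60 with TRAIL, the highest of the 10. Cd68 measured 62.0, 95.3 and 72.9 TPM, then 12.0, 14.6 and 13.9 TPM, then 65.3, 66.6 and 64.7 TPM. It kept the highest share after stimulation, 17.6% ± 1.73, and stood at 85.4% ± 1.28 with TRAIL.

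**Figure D2:**
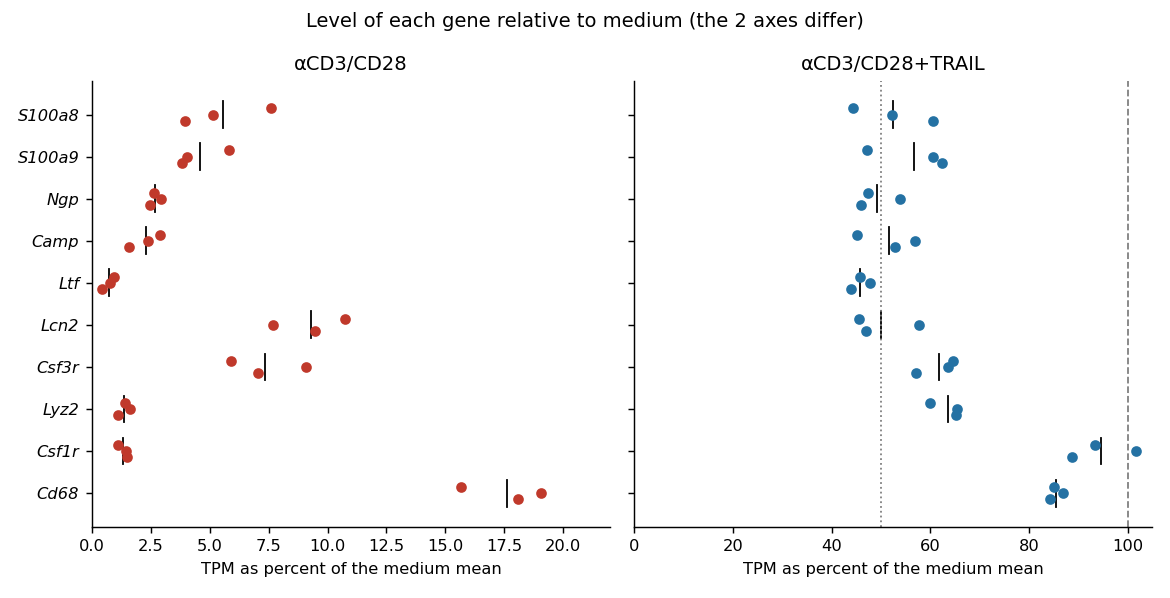
TPM of each gene as a percent of its medium mean, in the 3 libraries stimulated with anti-CD3/CD28 (left) and the 3 libraries with TRAIL added (right); points are libraries and lines are means, and the dotted and dashed lines on the right mark the middle of the range to the medium mean and the medium mean itself. The neutrophil genes lie around the dotted line with TRAIL, Csf3r and Lyz2 above it, and Cd68 (85.4%) and Csf1r (94.6%) nearest the medium mean.

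In tests, the fall after stimulation ranged from a log2 fold change of -2.40 (SE 0.15) for Cd68 to -6.01 (SE 0.14) for Lyz2, with limma adjusted p values of 2.2e-07 and 4.0e-10. That order depends on the pseudocount: in plain TPM the fall was larger for Ltf, at 138 times between the group means, than for Lyz2, at 72.9 times. Between TRAIL and stimulation alone the log2 fold changes ranged from 2.20 (SE 0.15) for Cd68 to 5.59 (SE 0.14) for Csf1r, with limma adjusted p values of 4.6e-07 and 8.5e-10. The largest adjusted p of the 10 in that comparison was 1.8e-06, for S100a8. Both sets of calls held at 10 of 10 under every alternative computed.

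Between TRAIL and medium the differences were smaller and did not run alike in all 10 genes. Only Ngp, at a log2 fold change of -1.02 (SE 0.10, limma adjusted p = 8.3e-05), and Ltf, at -1.10 (SE 0.12, limma adjusted p = 0.00016), were called lower with TRAIL, where 2.13% of all genes were called lower and 2.49% higher. None of the 10 was called higher by limma, and none had an unadjusted p under 0.05 in that direction. Of all genes, 33.3% were lower and 10.7% higher with TRAIL than in medium at an unadjusted p under 0.05, the shares against which the unadjusted counts of the lists are to be read. Lcn2 at -0.98, Camp at -0.93, S100a8 at -0.89, S100a9 at -0.79, Csf3r at -0.66 and Lyz2 at -0.64 had a limma adjusted p under 0.05 without reaching 1 log2 unit, so that 8 of the 10 passed on the adjusted p alone, beside 24.6% of all genes in that direction. The same 8 had TRAIL libraries that all lay below the medium libraries, as did 38.2% of all genes. The median log2 fold change was -0.84 for the 10 and -0.18 for all genes tested.

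For the remaining pair the interval of the difference was given instead. Csf1r differed between TRAIL and medium by a log2 fold change of -0.07 (95% interval -0.38 to 0.25, limma adjusted p = 0.75), whose sign turned under median-of-ratios scaling (0.12) and without medium replicate 2 (0.086). Cd68 differed by -0.20 (95% interval -0.53 to 0.12, limma adjusted p = 0.32). Neither interval reaches the values of Ngp or Ltf. The 2 calls of Ngp and Ltf rested close to the threshold of 1 log2 unit. Under median-of-ratios scaling, which moved the median of all genes by 0.17, Ngp stood at -0.83 and Ltf at -0.92, and neither was called. Without medium replicate 2, 4 of the 10 were called lower: S100a8, S100a9, Camp and Ltf. Without TRAIL replicate 2, 4 were called as well, Ngp, Camp, Ltf and Lcn2, and without TRAIL replicate 1 only Ltf.

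**Figure D3:**
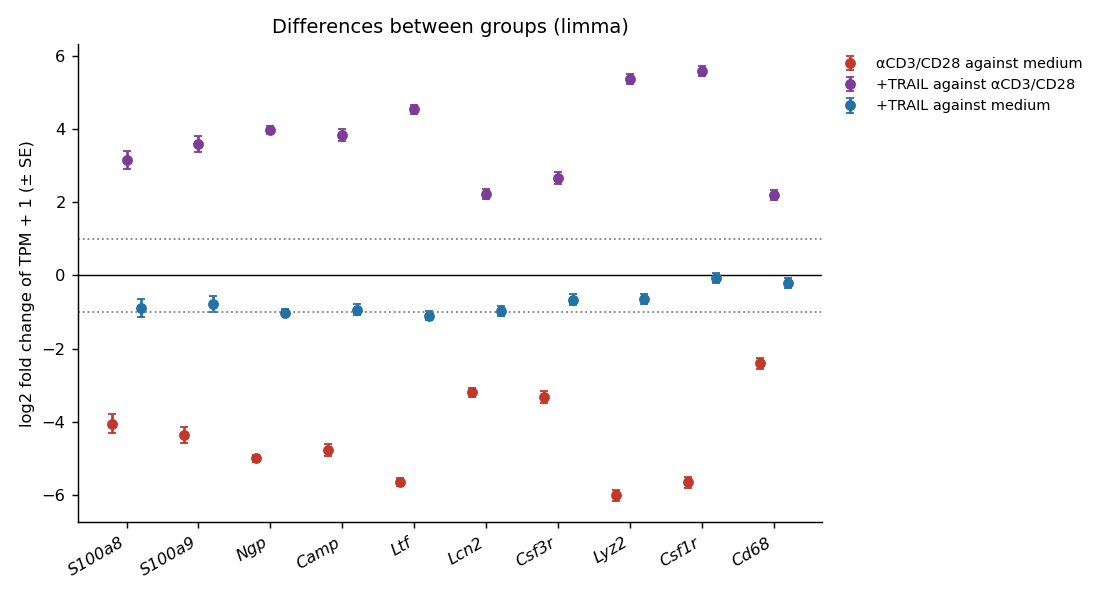
Log2 fold change of TPM + 1 with its SE (limma) for each of the 10 genes in the 3 comparisons; dotted lines mark 1 log2 unit in each direction. All values after stimulation lie below the lower line and all values of TRAIL against stimulation above the upper line, while TRAIL against medium spans -1.10 for Ltf to -0.07 for Csf1r, the latter of either sign depending on the scaling.

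The ratios between genes within a library showed which of them kept their proportions. Lcn2 to Ngp was 0.252, 0.256 and 0.249 in the medium libraries and 0.242, 0.270 and 0.257 with TRAIL, against 1.03, 0.663 and 0.967 after stimulation. Ngp to Ltf was 2.62 to 2.92 in medium and 2.84 to 3.09 with TRAIL, against 7.56 to 15.1 after stimulation. Thus the specific granule genes stood in nearly the same proportions in medium and with TRAIL, with overlapping ranges for Lcn2 to Ngp, Ngp to Ltf and Camp to Ngp, and in other proportions after stimulation for the ratios with Lcn2 and with Ltf. Camp to Ngp overlapped across all 3 groups, at 0.271 to 0.394, 0.215 to 0.366 and 0.317 to 0.383 in that order.

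Ratios across the lineages did not keep their medium value with TRAIL. Ngp to Csf1r was 1.15 to 1.54 in medium and 0.685 to 0.714 with TRAIL. Csf3r to Csf1r was 0.203 to 0.238 in medium and 0.136 to 0.150 with TRAIL, without overlap, whereas after stimulation it was 1.03 to 1.37. Lyz2 to Csf1r overlapped, at 2.46 to 4.57 in medium and 2.25 to 2.57 with TRAIL. Cd68 to Csf1r, within the monocyte and macrophage genes, was 0.450 to 0.524 in medium and 0.421 to 0.469 with TRAIL, and 6.00 to 7.08 after stimulation. These ratios are given as descriptions and were not tested.

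**Figure D4:**
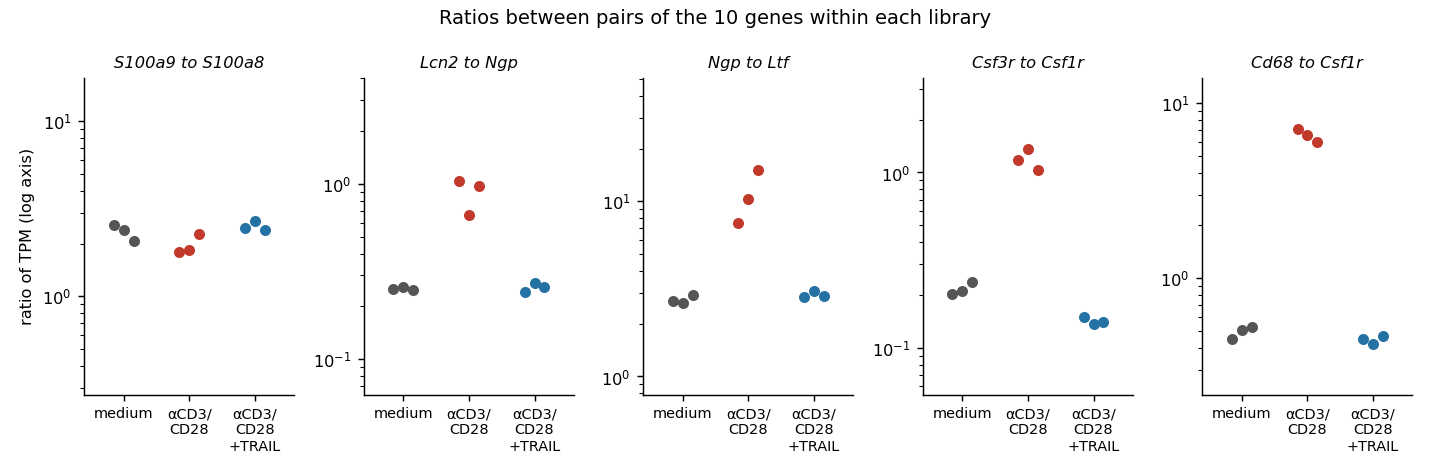
Ratio of the TPM of 2 genes within each library (log axis; every panel spans the same number of log units), in the 3 libraries of each group. Lcn2 to Ngp and Ngp to Ltf match between medium and TRAIL and differ after stimulation, while Csf3r to Csf1r is lower with TRAIL (0.136 to 0.150) than in medium (0.203 to 0.238).

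The medium libraries split the 10 genes in a further way. Medium replicate 2 was the lowest of the 3 for S100a8, S100a9, Camp and Lyz2 and the highest for the other 6. Ngp to S100a8 was 1.72 in that library against 0.959 and 0.947 in the other medium libraries. Among the TRAIL libraries the coefficients of variation ran from 1.503% for Cd68 to 15.4% for S100a8, beside 5.67% for Ngp to 28.2% for S100a8 in medium; they were larger than in medium for Ngp (8.52%) and Lcn2 (13.2% against 6.28%).

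The same lineages were followed through 4 lists of further genes and 1 list of myeloid genes in general. The 6 azurophil granule and promyelocyte genes were all called lower after stimulation, and 5 were called higher with TRAIL than after stimulation. With TRAIL they stood at 84.7% to 166% of their medium means, with a median of 127%, beside 45.8% to 51.6% for Ngp, Camp, Ltf and Lcn2; the difference between these sets of genes was not tested. Mpo, which encodes myeloperoxidase, averaged 20.1 TPM in medium, 0.289 after stimulation and 26.2 with TRAIL. Elane, which encodes neutrophil elastase, averaged 9.81, 0.0233 and 12.9 TPM, and Prtn3, which encodes proteinase 3, averaged 9.70, 0.0963 and 11.9 TPM. The transcription factor gene Myb, which is also expressed in lymphocytes, averaged 64.7, 21.9 and 108 TPM. None of the 6 was called by limma between TRAIL and medium, 3 had an unadjusted p under 0.05, all higher, beside 10.7% of all genes, and on the adjusted p alone Elane (limma adjusted p = 0.034) and Myb (limma adjusted p = 0.00075) passed. Their median log2 fold change was 0.32, beside -0.18 for all genes.

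Of 12 other specific granule and immature neutrophil genes, 11 could be tested. All 11 were called lower after stimulation and 8 were called higher with TRAIL than after stimulation, or 4 with a pseudocount of 5. Between TRAIL and medium 3 were called lower and none higher, with a median of -0.82, and at an unadjusted p under 0.05 10 were lower and none higher, beside 33.3% and 10.7% of all genes. Only 1 was called with a pseudocount of 5, with median-of-ratios scaling, with quantile normalization or without medium replicate 1. Serpinb1a, which encodes an inhibitor of neutrophil serine proteases, averaged 84.8 TPM in medium, 3.75 after stimulation and 29.7 with TRAIL, and was called lower with TRAIL at -1.48 (SE 0.12, limma adjusted p = 1.8e-05). Chil3, which encodes the chitinase-like protein Ym1, averaged 65.6, 2.49 and 30.4 TPM and was called at -1.06 (SE 0.19, limma adjusted p = 0.0031). The third called gene was Cebpe, which encodes the transcription factor of the specific granule stage, at 2.71, 0.200 and 0.817 TPM; it was named after its values were seen. Cebpe reached 1 TPM in the medium libraries only and so passed the filter through the group where it was high. Its calls support nothing here. It is among the 11 called lower after stimulation, and among the 10 lower with TRAIL than in medium at an unadjusted p under 0.05. It also enters the median of -0.82. Between TRAIL and medium 2 calls are left without it, Serpinb1a and Chil3. Pglyrp1 averaged 29.7, 8.49 and 17.9 TPM and Anxa1 30.7, 1.54 and 16.8 TPM, and neither was called between TRAIL and medium.

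The 16 other genes of mature neutrophils did not move as one group. After stimulation 10 were called lower and 2 higher, or 5 and 2 with a pseudocount of 5, and with TRAIL 9 were called higher than after stimulation, or 4 with a pseudocount of 5. Between TRAIL and medium 4 were called higher and 1 lower, with a median of -0.37, with 4 higher and 4 lower called with a pseudocount of 0.1 and 2 higher and none lower with a pseudocount of 5. At an unadjusted p under 0.05, 6 were higher and 7 lower, beside 10.7% and 33.3% of all genes. Ly6g and Stfa2l1, named after their values were seen, are among the 10 called lower after stimulation. Ly6g passed the filter through the medium libraries only and is also among the 7 lower at an unadjusted p. Stfa2l1 reached 1 TPM in all medium libraries, in no stimulated library and not in all TRAIL libraries. It too depended on the medium libraries to pass, so these calls support nothing here. Il1b, which encodes the cytokine interleukin 1 beta, averaged 52.3 TPM in medium, 31.6 after stimulation and 129 with TRAIL. Mxd1, which encodes a partner of MAX and is expressed in many cell types, averaged 26.7, 93.5 and 91.5 TPM. Il1r2, which encodes the decoy receptor for interleukin 1, averaged 3.75, 19.9 and 10.5 TPM. Trem1 rose from 1.72 TPM in medium to 5.17 with TRAIL, and the chemokine receptor gene Cxcr2 fell from 9.30 to 3.43 TPM; both were named after their values were seen. Retnlg averaged 25.7 TPM in medium and 22.3 TPM with TRAIL and was listed at the floor of 0.0001 TPM in all 3 stimulated libraries.

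Of 18 other monocyte genes 17 could be tested. All 17 were called lower after stimulation, 16 were called higher with TRAIL than after stimulation, and none was called between TRAIL and medium by limma, where 2.13% of all genes were called lower and 2.49% higher. At an unadjusted p under 0.05, 8 of the 17 were lower and 2 higher, beside 33.3% and 10.7% of all genes, and the median was -0.32. With median-of-ratios scaling, with quantile normalization, without medium replicate 2 or without TRAIL replicate 1, 1 was called higher. Ly6c2, which marks classical monocytes but also some lymphocytes, averaged 157, 39.1 and 102 TPM in the order medium, stimulation and TRAIL. Its values are uncertain, since reads can be divided with the near-identical Ly6c1, which averaged 154, 409 and 118 TPM. Treml4 and Adgre4, which mark Ly6C-low monocytes, averaged 60.2, 0.519 and 49.2 TPM and 42.5, 0.0768 and 37.7 TPM. Klf4, a transcription factor gene of monocytes, averaged 33.0, 3.48 and 65.8 TPM, a log2 fold change of 0.98 between TRAIL and medium that stayed under the threshold.

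Among 24 genes shared by myeloid cells, 19 were called lower and 1 higher after stimulation, 17 were called higher with TRAIL than after stimulation, and 1 was called higher with TRAIL than in medium. At an unadjusted p under 0.05, 15 were lower and 3 higher with TRAIL than in medium, beside 33.3% and 10.7% of all genes, with a median of -0.35. The called gene, in both comparisons with medium, was Cebpb, which encodes a C/EBP transcription factor that lymphocytes also express, at 47.0 TPM in medium, 141 after stimulation and 138 with TRAIL. Ctss, which encodes cathepsin S, averaged 511, 149 and 421 TPM. Cst3, which encodes cystatin C, averaged 286, 127 and 206 TPM, and Mpeg1, which encodes perforin 2, averaged 140, 28.9 and 113 TPM.

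The ligands and receptors of the 10 proteins gave 6 genes that could be tested out of 9. Csf1, which encodes M-CSF, the ligand of CSF1R, averaged 4.97 TPM in medium, 10.7 after stimulation and 5.79 with TRAIL, and was not called in any comparison. Its log2 fold change after stimulation was 0.96 (limma adjusted p = 0.00044), just under the threshold, and with a pseudocount of 0.1 in place of 1 the list had 1 gene called higher after stimulation. Csf3, which encodes G-CSF, the ligand of CSF3R, did not pass the filter, at 0.0274, 1.21 and 0.163 TPM; it was named as the ligand of one of the 10, outside the rule by level. Of the receptors for calprotectin, Tlr4 was called lower after stimulation and higher with TRAIL than after stimulation, at 9.22, 1.43 and 4.63 TPM, and Ager was called in no comparison, at 7.92, 6.53 and 6.54 TPM. Lrp1, which encodes a receptor for lactoferrin among many ligands, averaged 29.1, 2.96 and 29.0 TPM and was called lower after stimulation and higher with TRAIL than after stimulation. With a pseudocount of 5, or with quantile normalization, 1 gene of the list was called higher with TRAIL than after stimulation in place of 2.

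**Figure D5:**
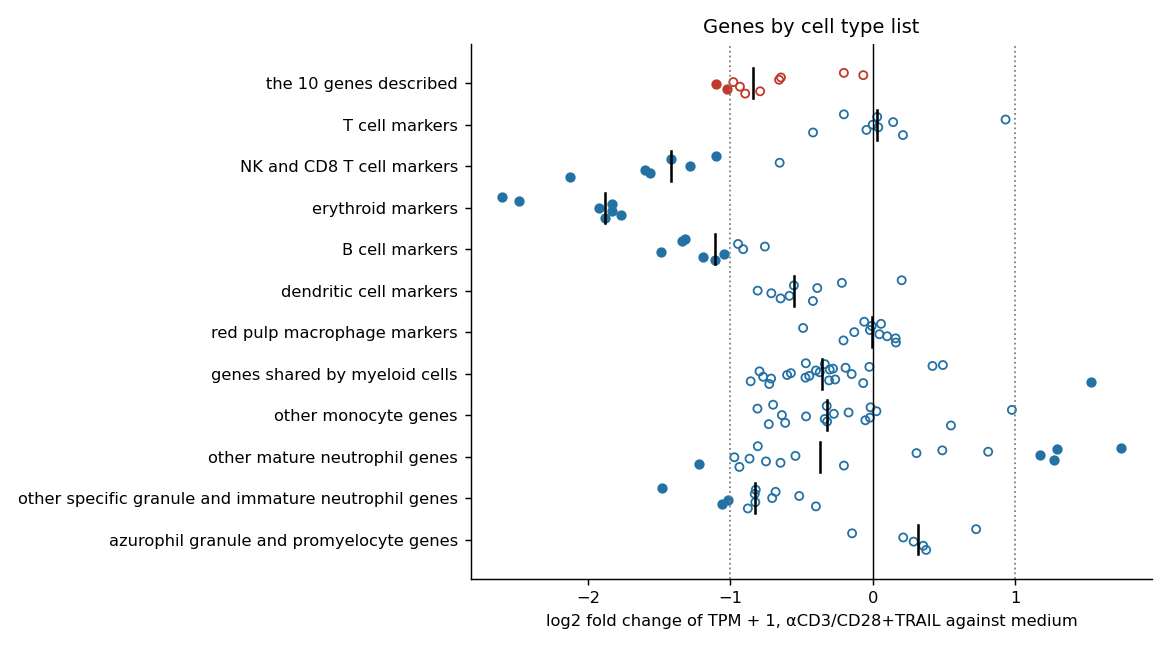
Log2 fold change of TPM + 1 between TRAIL and medium for each tested gene of 12 lists; filled points were called by limma, open points were not, short lines are medians and dotted lines mark 1 log2 unit. By their medians, the 10 genes (-0.84) and the other specific granule genes (-0.82) lie right of 3 lists. These are the B cell (6 of 9 called lower), NK and CD8 T cell (6 of 7) and erythroid markers (7 of 7). The red pulp macrophage markers and azurophil genes lie further right, near or above 0.

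Markers of other cell types moved with the 10 genes, and their part in the result was not tested. All 11 red pulp macrophage markers were called lower after stimulation, when they summed to 71.4 to 75.6 TPM, and all 11 were called higher with TRAIL than after stimulation. With TRAIL they summed to 1566 to 1810 TPM, 99.1% of the medium level, beside 94.6% for Csf1r. All 9 B cell markers were called lower after stimulation, when they summed to 185 to 199 TPM, and with TRAIL they summed to 922 to 1029 TPM, 43.8% of medium, beside 49.1% for Ngp. The 7 erythroid markers summed to 24.8 to 39.6 TPM after stimulation and to 619 to 669 TPM with TRAIL, 26.9% of medium.

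The remaining lists moved less alike. The 7 NK and CD8 T cell markers summed to 134 to 143 TPM after stimulation and to 110 to 119 TPM with TRAIL, 38.5% of medium, and these sums join opposite moves. Most of the sum after stimulation came from Cd8a (45.0 TPM) and Cd8b1 (55.8 TPM). Cd8a was called lower with TRAIL than after stimulation. The NK genes Ncr1, at 2.64 and 8.44 TPM, and Klrb1c, at 3.13 and 7.67 TPM, were called higher. Klrd1, at 17.2 and 29.4 TPM, was not called, and neither were Klre1, Eomes and Cd8b1. Klrb1c, Klre1 and Eomes were named after their values were seen. With a pseudocount of 5 neither NK call was kept. The 9 dendritic cell markers summed to 40.3 to 43.4 TPM and 42.0 to 48.2 TPM, with 6 called lower and 1 higher after stimulation, and 4 called higher and 2 lower with TRAIL than after stimulation. With a pseudocount of 5 these counts were 3 lower and 1 higher, and 2 higher and 1 lower, and with a pseudocount of 0.1 the latter were 7 higher and 2 lower. The sum after stimulation was carried by Batf3, at 29.6 TPM against 4.07 TPM in medium, while Itgax averaged 29.8, 3.06 and 16.6 TPM in the order medium, stimulation and TRAIL. The median marker stood at 10.3% of medium after stimulation and at 63.8% with TRAIL. Xcr1, named after its values were seen, is among the 6 called lower after stimulation. It reached 1 TPM in the medium libraries only and so passed the filter through the group where it was high. Its call supports nothing here. The 6 basophil, mast cell and eosinophil markers summed to 29.3 to 37.5 TPM in medium, 6.06 to 7.95 TPM after stimulation and 30.6 to 33.9 TPM with TRAIL. Most of the sum with TRAIL came from Prg2, at 17.8, 1.56 and 22.1 TPM in that order. The median tested marker stood at 77.9% of medium with TRAIL. The 5 platelet and megakaryocyte markers summed to 29.9 to 37.3, 5.30 to 6.15 and 8.70 to 9.497 TPM in the same order. Of the 9 T cell markers only Cd3g was called lower after stimulation, and none was with median-of-ratios scaling or without medium replicate 1 or 3; the list stood at 83.2% of medium after stimulation and at a level with TRAIL whose range overlapped that of medium.

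Finally the genes whose profile over the 9 libraries was most like that of the 10 were sought among 11334 genes that averaged 5 TPM or more, by the root mean square difference of centred log2(TPM + 1) values. Nearest to the mean profile of the 4 specific granule genes were Fcrl1 (0.077), Cd79a (0.14), H2-Ob (0.15), Marchf1 (0.16) and Cyp4f18 (0.19). Cd79a is on the list of B cell markers, and Fcrl1 is known as a B cell gene. Fcrl1 averaged 95.3 TPM in medium, 2.78 after stimulation and 48.1 with TRAIL. Nearest to Csf1r were Itgad (0.11), C1qb (0.15), Mrc1 (0.17), C1qa (0.18) and Vcam1 (0.23), of which C1qa, C1qb and Vcam1 are on the list of red pulp macrophage markers. Itgad averaged 61.7 TPM in medium, 0.128 after stimulation and 61.8 with TRAIL. These likenesses describe 9 libraries in 3 groups and were not tested.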

How the data were processed

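RNA-seq was measured in splenic CD4+ T cells in 3 groups of 3 libraries, grouped by their labels. Libraries were made with the SureSelect XT HS2 mRNA kit. The submitters' processing notes name Trimmomatic 0.36, HISAT2 2.1.0, SAMtools 1.2 and StringTie 2.1.2, and the loci are those of GRCm38. The authors deposited TPM values for 55487 genes, so library depth and counting error are unknown, and TPM values are relative: when some transcripts rise, the others lose share. The program that gave the TPM values and whether reads were counted by strand are not given in the sources used here.

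The comparisons were made with limma 3.58.1 in R 4.3.3, using lmFit and then eBayes with a variance trend. The values were log2(TPM + 1), all 9 libraries entered 1 model without a block, and 15536 genes that reached 1 TPM in 3 or more libraries were tested. A gene was called at a Benjamini-Hochberg adjusted p under 0.05 over all genes tested together with a log2 fold change of 1 or more in size. The fit was tested on simulated data. The 10 genes, the gene lists and the tests were chosen with earlier results of these data known. From each other list at most the 4 genes of highest mean TPM were named, together with the 5 genes most like each profile, and any other gene is marked where it is named. The alternatives tried were another pseudocount, filter or scaling, no variance trend, no fold threshold, a replicate block, and each library left out. Promoter windows came from RefSeq (GRCm38.p6). Figures and summaries used Python 3.11.15, pandas 2.3.3 and matplotlib 3.10.9.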

Additional observations from a re-analysis of the deposited data

How the results depend on the processing

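The 10 genes were called lower after stimulation and higher with TRAIL than after stimulation in 10 of 10 under every alternative. Between TRAIL and medium the count of 2 called genes moved to 3 with a pseudocount of 0.1, to 1 with a pseudocount of 5, to 0 with median-of-ratios scaling, to 1 with quantile normalization and to 8 without the fold threshold, and ranged from 1 to 4 when single libraries were left out. Among the other neutrophil, monocyte and myeloid genes, 9 were called between TRAIL and medium (5 higher, 4 lower), 12 with a pseudocount of 0.1 (5 higher, 7 lower), 4 with a pseudocount of 5 (3 higher, 1 lower) and 45 without the fold threshold (11 higher, 34 lower), where 5063 of all 15536 genes tested were called. The 4 lower include Cebpe, and the 34 lower include Cebpe and Ly6g. Both genes passed the filter through the medium libraries only, so their calls support nothing here. The log2 fold change of Csf1r between TRAIL and medium reversed to 0.12 under median-of-ratios scaling, and ranged from -0.14 to 0.086 when single libraries were left out, the highest without medium replicate 2. Both other scalings moved all genes between TRAIL and medium: of all genes, 387 were called higher and 331 lower as deposited, 534 and 186 with median-of-ratios scaling, and 526 and 219 with quantile normalization. The causes were not tested.

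Same-numbered libraries did not deviate together (correlations of deviations from -0.31 to 0.29), so the numbers were not taken to pair libraries; a replicate block left the counts of the 10 genes at 10, 10 and 2. TPM values hold no depth, so no counting error can be given for low levels such as that of Ltf after stimulation.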
